A study of Mus musculus with 2 samples.

Results

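Tuft cells are rare chemosensory cells of the gut epithelium. The 10 genes described here are commonly used to recognise them: Pou2f3, Gfi1b, Trpm5, Gnat3, Avil, Dclk1, Ptgs1, Hpgds, Alox5ap and Il25. They were taken by symbol from the gene tables of 43346 Ensembl genes, and all 10 had a row in both libraries. The libraries came from whole-intestine tissue of 2 newborn B6NCrl mice (age 0 days) from the same pregnancy, sex not collected, 1 library per pup, and neither mouse was treated or carried an allele named in the labels. Both belong to a single group, so the data give levels and the spread between pup 1 and pup 2, not the effect of a condition. No source used here says which segments of the intestine were taken.

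A tuft cell senses luminal compounds through a pathway shared with taste cells: a G protein with the alpha subunit Gnat3 activates a phospholipase, calcium is released and the cation channel Trpm5 opens. The cell then releases the cytokine Il25 and lipid messengers made from arachidonic acid, by Ptgs1 and Hpgds toward prostaglandin D2 and by Alox5ap with its partner Alox5 toward leukotrienes. The fate depends on the POU factor Pou2f3, and in the adult mouse intestine the Il25 signal starts a type 2 immune response to parasites. Several of these genes have other known sources in gut tissue. Dclk1 is a neuronal kinase, Avil an actin-binding protein of peripheral neurons, Gfi1b a factor of red cell and platelet precursors, Ptgs1 an enzyme of platelets, mesothelium and other cells, and Hpgds and Alox5ap belong to blood-derived cells such as mast cells and macrophages.

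4 windows of 300 bases at annotated gene starts are shown, because the Dclk1, Trpm5 and Hpgds results below turn on which transcripts of these genes were read. All are GRCm38.p6 sequence credited to RefSeq, 250 bases before to 50 bases after each start. In the Dclk1 and Trpm5 windows the capitals mark the bases from the start onward. In the Hpgds window they mark an octamer, the 8-base word that POU factors bind. The first Dclk1 window (chr3:55242114-55242413, plus strand) lies at the upstream start, the second (chr3:55461478-55461777, plus strand) at the internal start, the third is Trpm5 (chr7:143094593-143094892, minus strand) and the fourth Hpgds (chr6:65144681-65144980, minus strand).
Dclk1 upstream start: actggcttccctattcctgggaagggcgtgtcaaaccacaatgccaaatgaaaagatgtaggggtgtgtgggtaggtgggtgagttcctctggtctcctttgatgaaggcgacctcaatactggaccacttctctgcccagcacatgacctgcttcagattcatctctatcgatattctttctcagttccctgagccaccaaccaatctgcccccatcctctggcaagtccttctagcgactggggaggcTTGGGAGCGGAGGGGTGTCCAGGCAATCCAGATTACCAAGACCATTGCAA
Dclk1 internal start: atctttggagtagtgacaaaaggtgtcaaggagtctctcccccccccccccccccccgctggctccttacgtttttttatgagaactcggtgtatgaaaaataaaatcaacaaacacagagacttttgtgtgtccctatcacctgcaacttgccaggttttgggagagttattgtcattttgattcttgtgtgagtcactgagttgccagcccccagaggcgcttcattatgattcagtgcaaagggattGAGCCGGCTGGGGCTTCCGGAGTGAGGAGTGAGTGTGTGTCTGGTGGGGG
Trpm5 start: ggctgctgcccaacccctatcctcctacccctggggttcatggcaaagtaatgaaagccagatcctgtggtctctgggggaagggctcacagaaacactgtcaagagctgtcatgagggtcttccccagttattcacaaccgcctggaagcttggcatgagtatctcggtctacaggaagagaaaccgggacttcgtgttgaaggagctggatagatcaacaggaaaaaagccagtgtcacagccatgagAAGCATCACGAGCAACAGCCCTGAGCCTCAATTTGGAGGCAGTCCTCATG
Hpgds start: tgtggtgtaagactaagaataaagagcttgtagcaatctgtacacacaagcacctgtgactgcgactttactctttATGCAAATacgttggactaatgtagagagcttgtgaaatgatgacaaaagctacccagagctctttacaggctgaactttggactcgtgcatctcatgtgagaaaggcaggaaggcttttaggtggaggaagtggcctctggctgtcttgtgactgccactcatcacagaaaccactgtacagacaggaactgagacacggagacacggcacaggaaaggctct
The RefSeq table held 8 windows for 7 of the 10 genes (Dclk1, Gfi1b, Ptgs1, Gnat3, Hpgds, Trpm5 and Avil). The octamer ATGCAAAT, searched on both strands, was present in 1 of the 8, that of Hpgds, where it began 174 bases before the RefSeq start. GENCODE places the start of Hpgds-201 further upstream, at 65144908, so that the octamer, which begins at 65144904, lies just inside its first exon. GENCODE begins Dclk1-201 and Dclk1-203 at 55242526, downstream of the first window, and Dclk1-202 at 55461758, inside the second. Of all 32851 windows in the table, 1.74% held it. TATAAA was in 0 of the 8 windows (13.6% of all windows), CAGCTG in 0 (16.3% of all) and CCAAT in 4 (37.4% of all). The windows held 2 to 7 CpG dinucleotides, against a median of 7 over all windows. A match is a description of the letters and says nothing of binding.

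Expected counts are estimated reads that need not be whole, and the gene total was 44568098 in pup 1 and 34797495 in pup 2. Levels are in TPM, the authors' abundance corrected for effective transcript length and scaled to a fixed library total. Detection here requires that each pup reach 1 TPM. At these depths a gene with no read can hide up to 3 counts. Such limits, and the intervals below, cover counting error alone, because without molecular identifiers several reads can come from a single molecule. There is no p-value, since the smallest that 2 pups allow in an exact sign-flip test is 0.5.

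In the newborn intestine 4 of the 10 tuft cell genes were detected, Hpgds, Ptgs1, Alox5ap and Dclk1, and the other 6 lay under the threshold. Detection held for 32% of all genes and for 59.1% of the 21461 nuclear protein-coding genes. All 10 genes have protein-coding transcripts, so the protein-coding share is the closer background. The count of 4 in 10 beside it is a description, since the genes were chosen with earlier results of these data known. At a threshold of 0.5 TPM the count was 5, with Trpm5 added. Each of the 4 detected genes has known sources other than tuft cells. Reads were present in both pups for 8 of the 10, and Gnat3 and Il25 had none. Of all 43346 genes, 23144 had a read in pup 1 and 23001 in pup 2. An expected count of 10 or more in both pups held for 6 of the 10. The share of all genes that pass this rule was not computed, so that count is a description only. The median over the 10 genes was 0.625 TPM in pup 1 and 0.61 TPM in pup 2, against 2.88 and 3.07 TPM over nuclear protein-coding genes. The order of levels was resolved in steps. Ptgs1 stood above Alox5ap by 3.15 ± 0.22, Dclk1 above Trpm5 by 1.21 ± 0.19 and Trpm5 above Avil by 1.49 ± 0.99 on the log2(TPM + 0.1) scale (SD, n = 2), without overlap of the ranges. The step from Trpm5 to Avil did not hold on protein-coding transcripts alone. There, by expected count, Trpm5 was at 0.17 TPM in pup 1 and 0.21 TPM in pup 2, and Avil at 0.16 and 0.42 TPM. By gene TPM the ranges also did not overlap for Hpgds above Ptgs1 (0.44 ± 0.059), an order that turned around on protein-coding transcripts. Nor did they for Pou2f3 above Gnat3, which had no read. The remaining steps by gene TPM were not resolved. The ranges overlapped for Alox5ap and Dclk1 and for Avil and Gfi1b, though the first of each pair was higher in both pups. Gfi1b was below Pou2f3 in pup 1 and above it in pup 2. In a whole-tissue library, fewer cells of a type and less RNA per cell cannot be told apart.

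**Figure D1:**
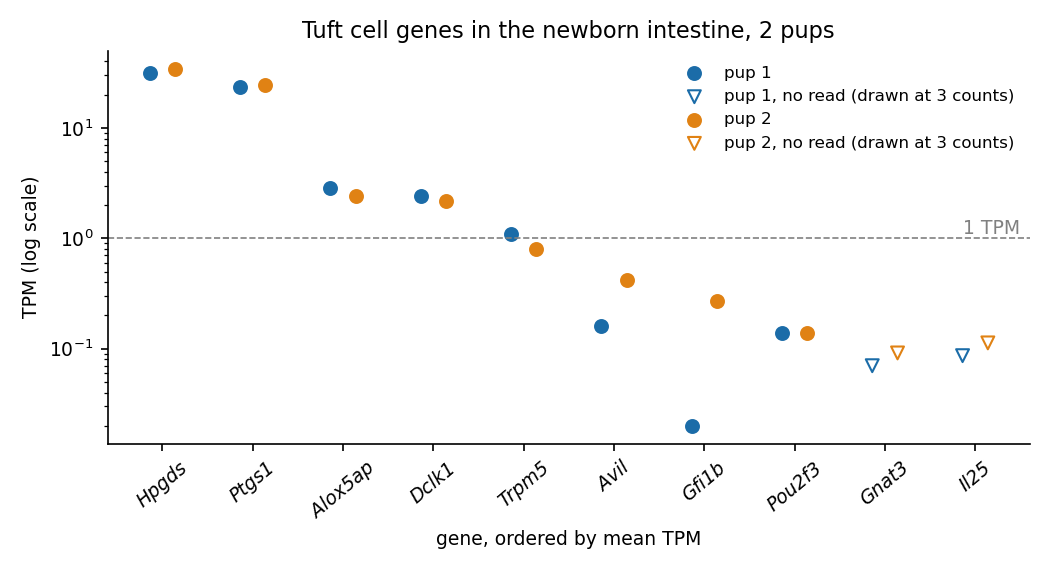
TPM (log axis) of the 10 tuft cell genes, ordered by mean, with pup 1 left of pup 2 for each gene. Hpgds and Ptgs1 stand above 20 TPM in both pups, Alox5ap and Dclk1 lie between 2 and 3 TPM, and Gnat3 and Il25, with no read, are drawn as open triangles at the TPM that 3 counts would give.

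Both regulators of the set were low. Pou2f3 (ENSMUSG00000032015.11, chromosome 9, 43123939 to 43210369, minus strand), the factor that sets the tuft cell fate, had 0.14 TPM in pup 1 and 0.14 TPM in pup 2. These values rest on 13 and 10 expected counts, above the 3-count limit, and the pups did not differ detectably. Gfi1b (ENSMUSG00000026815.10, chromosome 2, 28609450 to 28621982, minus strand), a zinc finger repressor, stood at 0.02 TPM in pup 1 and 0.27 TPM in pup 2. The counts behind these were 1 and 4, so both pups lay close to the limit. In pup 2 most of the Gfi1b level came from 0.76 of a read assigned to a 238-base noncoding transcript (Gfi1b-203), which alone gave 0.2 TPM. On protein-coding transcripts, Gfi1b was at 0.02 and 0.07 TPM.

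The sensing genes of the set, Gnat3 and Trpm5, had few expected counts on coding transcripts. Gnat3 (ENSMUSG00000028777.7, chromosome 5, 17962549 to 18019834, plus strand), the taste-type G protein alpha subunit, had 0 reads in both pups, and 3 counts would be 0.0701 TPM in pup 1 and 0.0915 TPM in pup 2. Trpm5 (ENSMUSG00000009246.10, chromosome 7, 143069153 to 143094642, minus strand) stood at 1.09 TPM in pup 1 and 0.8 TPM in pup 2, on 132 and 66.2 expected counts. Those reads were not assigned to the full-length channel mRNA that begins in the Trpm5 window above.

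The coding transcript Trpm5-201, of 1158 residues, received 0 expected counts in both pups. Transcript Trpm5-207, annotated as a retained intron, received 128 counts in pup 1 and 55.7 in pup 2, which was 84.1% and 65.2% of the gene's TPM. Its posterior mean counts were lower, 107 and 32.1, and its posterior share of TPM was 56.6% in pup 1 and 26.4% in pup 2, so in pup 2 it did not hold most of the gene by that estimate. A short coding transcript, Trpm5-206 (189 residues), took 3.91 and 3.67 counts. On protein-coding transcripts alone the gene came to 0.17 and 0.21 TPM. The deposited posterior means gave Trpm5-201 10.2 ± 11.3 counts in pup 1 and 12.4 ± 10.7 in pup 2 (posterior SD), so the estimate of 0 carries an error of about that size. Exons of Trpm5 share 220 bases with Tssc4, a gene on the opposite strand at 27.6 and 28.4 TPM, and no source used here says whether counting used strand. The part of Tssc4 in the Trpm5 value was not tested.

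**Figure D2:**
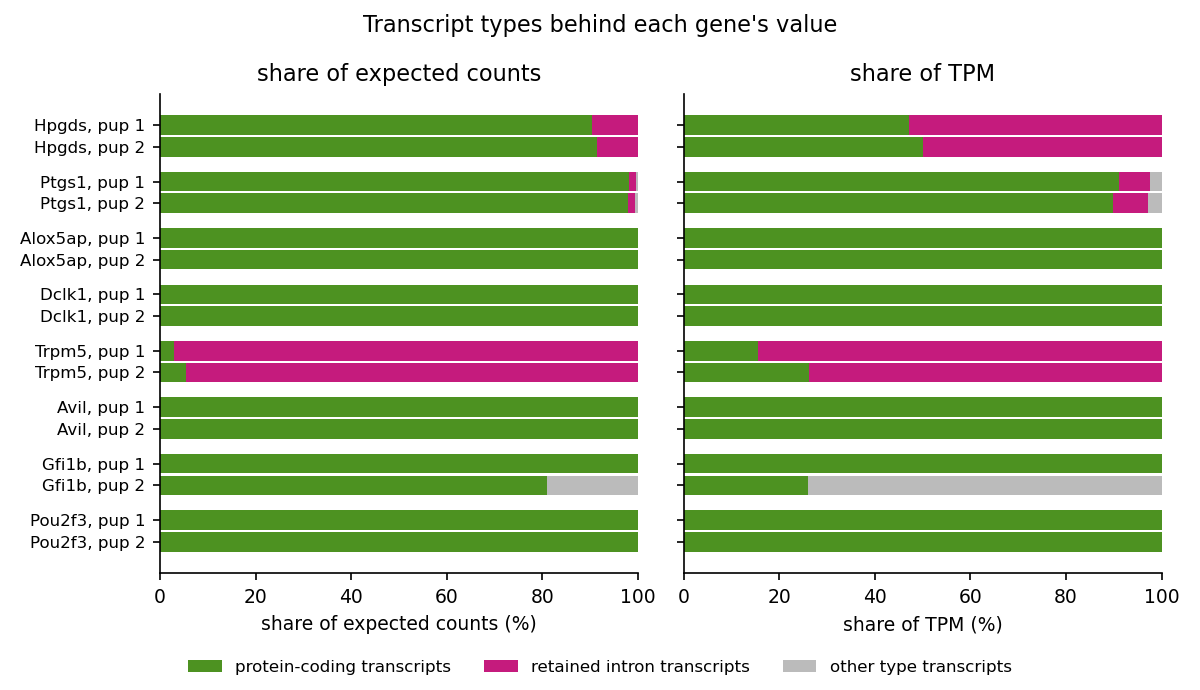
Share of each gene's expected counts (left panel, percent) and of its TPM (right panel, percent) on protein-coding, retained-intron and other transcripts, with pup 1 above pup 2. Trpm5 has 2.96% and 5.54% of its counts on coding transcripts, and Hpgds 90.4% and 91.4% of its counts but 47.1% and 50.1% of its TPM.

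The rest of the taste-type pathway showed 4 of 17 genes detected and 5 with no read in either pup. Trpm4, a related calcium-activated channel that is not confined to tuft cells, stood at 19.4 TPM in pup 1 and 22.9 TPM in pup 2. Itpr3, the calcium release channel, stood at 4.88 and 5.82 TPM, the succinate receptor Sucnr1 at 1.91 and 2.5 TPM, and Gnat1, a visual-type G protein subunit, at 1.53 and 1.3 TPM. The tuft and taste partners Plcb2, Gng13 and Gnb3 were each under 1 TPM in both pups, at 0.47 and 0.62 TPM, 0.76 and 0.73 TPM, and 0.33 and 0.37 TPM. The taste receptor genes Tas1r2, Tas2r105, Tas2r108 and Tas2r143 had no read, nor did Calhm1, and Tas1r1 was at 0.06 and 0.01 TPM. The taste receptor gene Tas1r3 had 15 counts in pup 1 and 17 in pup 2, at 0.12 and 0.18 TPM.

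The structural genes differed in kind. Avil (ENSMUSG00000025432.7, chromosome 10, 127000709 to 127020994, plus strand), the actin-binding protein advillin, had 0.16 TPM in pup 1 and 0.42 TPM in pup 2, on 8.87 and 34 expected counts. In pup 1 a single read on the short transcript Avil-204 made up 53.8% of the TPM, and the full-length Avil-201 was at 0.07 TPM in pup 1 against 0.42 TPM in pup 2. Exons of Avil share 165 bases with Tsfm on the opposite strand, which stood at 34.1 and 35.1 TPM. What Tsfm adds to Avil was not tested.

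Dclk1 (ENSMUSG00000027797.11, chromosome 3, 55242364 to 55539068, plus strand), the kinase most used to stain tuft cells, stood at 2.41 TPM in pup 1 and 2.18 TPM in pup 2, on 576 and 396 counts. Its long form (Dclk1-201, 756 residues) carries microtubule-binding doublecortin domains and a kinase domain. The transcript from the internal start (Dclk1-202, 422 residues) codes for the kinase end, and 391 of its residues come from coding bases that the long form also uses. Dclk1-203 (363 residues) begins with the long form and shares 345 residues with it, but only 31 with Dclk1-202.

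By the deposited estimate, most of the Dclk1 level was assigned to transcripts annotated from the upstream start. Where transcription began was not measured. The transcripts that begin there held 93.5% of the gene's TPM in pup 1 and 84.5% in pup 2, and the internal start 6.52% and 15.5%. Among them Dclk1-203, which lacks most of the kinase part, held 58% in pup 1 and 57.1% in pup 2. The full-length Dclk1-201 held 35.5% and 27.4%. The share of Dclk1-203 was thus nearly equal in both pups, whereas that of the internal start was higher in pup 2. That last difference was not tested: the posterior mean count of Dclk1-202 was 44.3 ± 17.2 in pup 1 and 71.2 ± 22.3 in pup 2 (posterior SD). Of enteric neuron markers, 12 of 13 were detected, with a summed level of 220 TPM in pup 1 and 217 TPM in pup 2. They were led by Uchl1 (57.3 and 52.2 TPM), Gap43 (31.8 and 32.2 TPM), Stmn2 (30.4 and 33.6 TPM) and Prph (20.9 and 22.6 TPM). How much of the Dclk1 or Avil RNA lay in neurons was not tested.

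The prostaglandin enzymes were the highest of the 10 genes. Hpgds (ENSMUSG00000029919.4, chromosome 6, 65117293 to 65144908, minus strand), which makes prostaglandin D2, stood at 31.1 TPM in pup 1 and 34.4 TPM in pup 2, on 1970 and 1758 counts. Ptgs1 (ENSMUSG00000047250.9, chromosome 2, 36230426 to 36252272, plus strand), the constitutive cyclooxygenase that feeds it, stood at 23.6 and 24.7 TPM, on 2184 and 1729 counts. On the TPM scale the pups' ranges of Hpgds and Ptgs1 did not overlap, and Hpgds was 1.35-fold higher (0.44 ± 0.059 on the log2(TPM + 0.1) scale, SD, n = 2). That order depended on a single short transcript.

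The noncoding Hpgds-202, a retained intron of 420 bases, received 189.9 counts in pup 1 and 152 in pup 2, and its shortness turned these into 52.9% and 49.9% of the TPM. On coding transcripts alone, Hpgds came to 14.7 TPM in pup 1 and 17.3 TPM in pup 2, below the 21.5 and 22.2 TPM of Ptgs1. Ptgs1-201, the coding transcript of Ptgs1, held 91.1% and 89.9% of its gene. Read by the coding transcripts, Ptgs1 was therefore the higher of the pair in both pups.

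Alox5ap (ENSMUSG00000060063.6, chromosome 5, 149264767 to 149288153, plus strand), the membrane protein that hands arachidonic acid to 5-lipoxygenase, stood at 2.88 TPM in pup 1 and 2.41 TPM in pup 2, on 78 and 50 counts. It stood above Dclk1 in both pups, by 0.19 ± 0.077 on the log2(TPM + 0.1) scale (SD, n = 2), although the ranges of the 2 genes over pups overlapped. Alox5, the lipoxygenase itself, was lower, at 0.39 TPM in pup 1 and 0.34 TPM in pup 2, on 22 and 18 counts.

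Other genes of lipid messenger synthesis were mostly detected, 10 of 14, with a median of 4.68 TPM in pup 1 and 5.21 TPM in pup 2. Ptges3, a cochaperone also listed as a prostaglandin E synthase, led at 217 and 213 TPM, followed by the leukotriene hydrolase Lta4h at 163 and 175 TPM, Ptges2 at 39.3 and 37.6 TPM and the leukotriene C4 synthase Ltc4s at 31.2 and 42.9 TPM. The phospholipase Pla2g4a, which frees arachidonic acid, stood at 16.2 and 14.99 TPM. The inducible cyclooxygenase Ptgs2 was at 1.26 and 1.62 TPM, below Ptgs1 in both pups, and Ptgds, the other prostaglandin D2 synthase, at 0.99 and 1.76 TPM, below Hpgds. Hpgd, which inactivates prostaglandins, was at 18.3 and 17.2 TPM.

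Among 11 receptors for these lipids, 7 were detected. Ptger4 (12.1 and 11.6 TPM), Tbxa2r (7.7 and 8.55 TPM), Ptger3 (6.49 and 6.3 TPM) and Cysltr1 (5.76 and 5.57 TPM) led. The prostaglandin D2 receptor Ptgdr stood at 0.73 TPM in pup 1 and 0.6 TPM in pup 2, and Ptgdr2, the second one, had 0 counts in pup 1 and 1.02 in pup 2. The cysteinyl leukotriene receptor Cysltr2 was at 0.07 and 0.09 TPM. Both D2 receptors thus lay under the detection threshold while the synthase Hpgds lay above it.

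**Figure D3:**
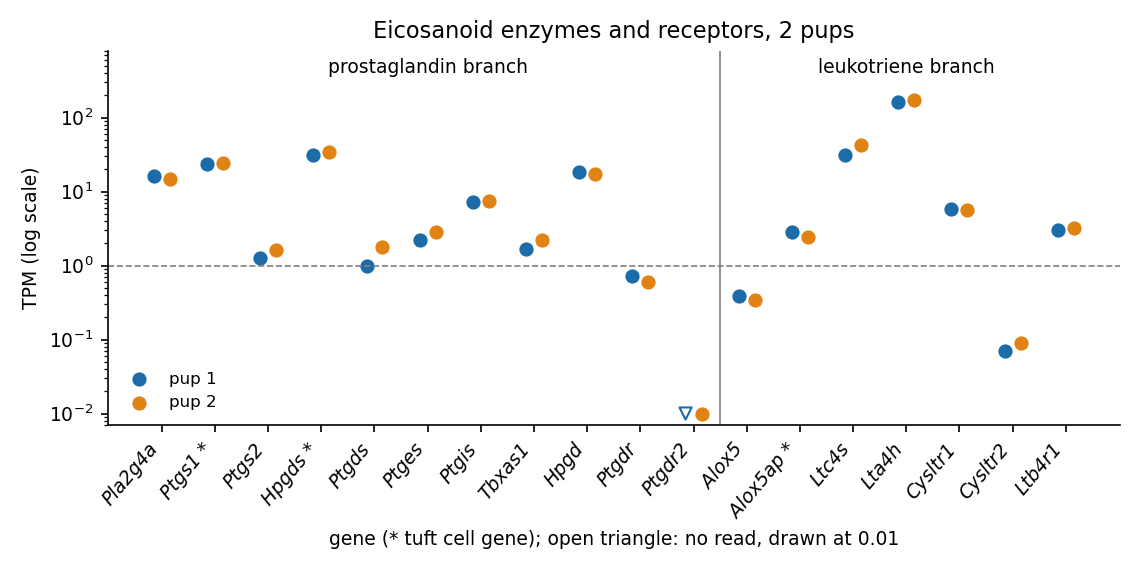
TPM (log axis) of genes that make, break down or sense prostaglandins (left) and leukotrienes (right), pup 1 left of pup 2, with an asterisk for tuft cell genes and a dashed line at 1 TPM. Ptgs1 and Hpgds exceed 20 TPM, while Alox5 and the prostaglandin D2 receptors Ptgdr and Ptgdr2 lie under 1 TPM.

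Il25 (ENSMUSG00000040770.5, chromosome 14, 54932695 to 54935837, plus strand), the cytokine by which tuft cells call lymphoid cells, had 0 reads in both pups, where 3 counts would be 0.0865 TPM in pup 1 and 0.113 TPM in pup 2. Its receptor chain Il17rb was at 0.36 and 0.24 TPM, and Il17ra, the shared chain, at 3.38 and 4.08 TPM. Of 15 genes of the type 2 circuit, 9 were detected and the cytokines Il13, Il5 and Il9 had no read. Il4 had 4 counts in pup 1 and 4 in pup 2 (0.23 and 0.32 TPM). Those detected were led by Stat6 (21.8 and 23.6 TPM), Il13ra1 (21.6 and 22.6 TPM), Il4ra (20.0 and 21.4 TPM) and the alarmin Il33 (12.3 and 13.1 TPM). They also included Areg (6.12 and 14.6 TPM) and Tslp (1.72 and 1.93 TPM).

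A wider set of tuft cell markers was also uneven in level. Of 27 listed, 26 were measured and 10 detected, with a median of 0.79 TPM in pup 1 and 1.08 TPM in pup 2. Those at the top are also used by other cells: Nrep (123 and 122 TPM), Cd24a (73.3 and 69.9 TPM), Ptpn18 (29.0 and 33.1 TPM) and the leukocyte phosphatase Ptpn6 (14.3 and 13.99 TPM). At the bottom, Sh2d7 had no read, Ly6g6f 1 and 0 counts, Rgs13 4 and 3 counts, and Sh2d6 5 and 3 counts. The Pou2f3 coactivator listed as 1810046K07Rik had 3 counts in pup 1 and 4 in pup 2. In between lay Ly6g6d (3.92 and 3.09 TPM), Lrmp (0.92 and 1.11 TPM), Hmx3 (0.74 and 1.15 TPM), Bmx (0.6 and 0.54 TPM) and Hmx2 (0.44 and 0.45 TPM), among others. Of the 4 genes known in the gut chiefly from tuft cells, Pou2f3 was measured at a low level, and Gnat3 and Il25 had no read. Trpm5 stood at 1.09 and 0.8 TPM, with 0.17 and 0.21 TPM on protein-coding transcripts by expected count. That estimate gave the coding Trpm5-201 no reads, where its posterior mean counts were 10.2 ± 11.3 in pup 1 and 12.4 ± 10.7 in pup 2 (posterior SD). Which cells the RNA of the 10 genes came from was not tested.

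Within the 10 genes, those with other known sources in the gut (Dclk1, Gfi1b, Avil, Ptgs1, Alox5ap and Hpgds) stood above those known there chiefly from tuft cells (Pou2f3, Trpm5, Gnat3 and Il25). Of the 6 with other sources 4 were detected, and of the 4 others 0. Trpm5 lay close to the threshold, and it passed by posterior mean TPM (1.34 in pup 1 and 1.14 in pup 2), by a threshold of 0.5 TPM, by CPM (2.97 and 1.90) and in pup 1 alone, which makes 1 of 4. The difference between the medians of log2(TPM + 0.1) was 4.14 in pup 1 and 3.95 in pup 2, a mean of 4.05 ± 0.14 (SD, n = 2). It is a description, since the genes were grouped with their levels known, and it fell to 1.70 with a pseudocount of 1 TPM. The division was not clean: among those with other sources, Gfi1b overlapped Pou2f3 in level and Avil lay below Trpm5 by gene TPM. On protein-coding transcripts alone, by expected count, Avil lay above Trpm5 in pup 2.

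The 10 genes stood below both other secretory lineages of the gut that were compared. The median of log2(TPM + 0.1) was below that of 16 enteroendocrine genes, with differences of -5.31 in pup 1 and -5.09 in pup 2 (-5.20 ± 0.15, SD, n = 2). Of the enteroendocrine genes 13 of 16 were detected, led by Sct (294 and 277 TPM), Pyy (150 and 142 TPM), Nts (123 and 124 TPM) and Gip (115 and 120 TPM). Transcription factors of that list stood lower. Neurod1 (1.71 and 1.92 TPM), Isl1 (1.13 and 1.88 TPM) and Neurog3 (1.07 and 1.21 TPM) were detected. Pax4 (0.34 and 0.81 TPM), Pax6 (0.34 and 0.4 TPM) and Insm1 (0.39 and 0.35 TPM) were not. Against 13 goblet genes the difference was -7.99 in pup 1 and -7.69 in pup 2 (-7.84 ± 0.21, SD, n = 2). There 12 of 13 were detected, led by Tff3 (1771 and 1640 TPM), Guca2a (1590 and 1729 TPM), Spink4 (490 and 336 TPM) and Agr2 (403 and 352 TPM). Both differences kept their direction but were much smaller over the detected tuft cell genes alone, at -2.21 and -4.21, and with means in place of medians, at -3.50 and -6.05. These lists hold abundant secreted products, so the differences compare lists of genes, not numbers of cells.

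**Figure D4:**
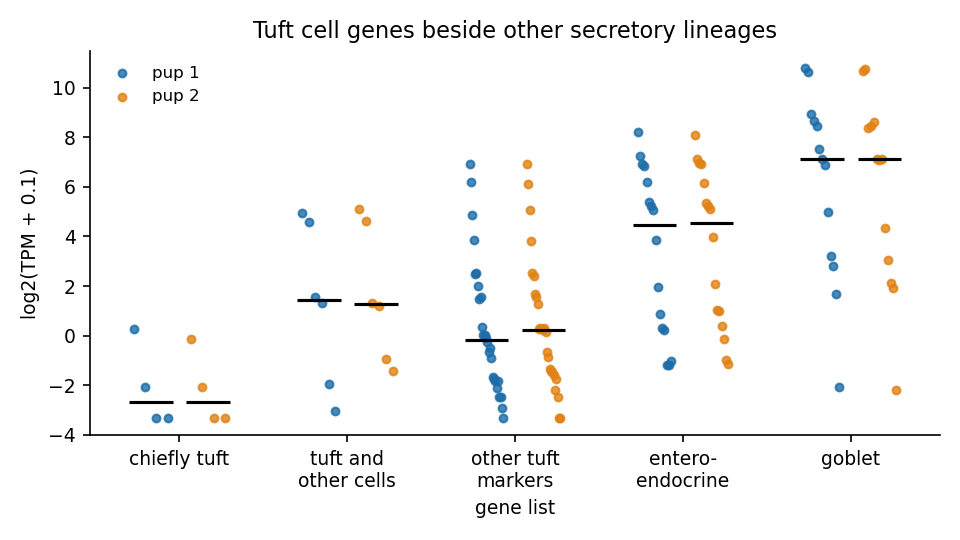
Each point is a gene, its log2(TPM + 0.1) in pup 1 (left column of each pair) or pup 2 (right), and bars are medians. By median, the genes known chiefly from tuft cells lie lowest. Those with other sources and the other tuft markers lie in between, and the enteroendocrine and goblet lists highest. Single genes of the lists overlap, with Trpm5 above Avil and Gfi1b.

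Marker genes of the other cells that are known to use these genes were present in uneven amounts. The part of each in the levels above was not tested. Of macrophage and myeloid markers 13 of 14 were detected, with a summed level of 391 TPM in pup 1 and 387 TPM in pup 2, led by Csf1r (82.3 and 78.1 TPM), C1qb (57.3 and 54.3 TPM), Tyrobp (50.9 and 47.9 TPM) and Fcer1g (38.3 and 43.4 TPM). Of mast cell markers 6 of 12 were detected, summing to 23.4 and 24.5 TPM, led by Tpsb2 (5.38 and 6.28 TPM), Cma1 (4.65 and 5.14 TPM), Kit (4.73 and 4.6 TPM) and Cpa3 (4.13 and 3.06 TPM), and Ms4a2 was at 0.04 and 0 TPM.

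Of megakaryocyte and platelet markers 5 of 10 were detected, summing to 55.9 TPM in pup 1 and 59.1 TPM in pup 2. Pf4 (45.5 and 48 TPM), also made by macrophages, led Itgb3 (4.26 and 4.93 TPM), Itga2b (2.02 and 2.05 TPM) and Gp1bb (1.45 and 2.15 TPM), while Gp6 had no read and Gp1ba was at 0.05 and 0.08 TPM. Of 9 erythroid markers measured 4 were detected, summing to 803 and 1225 TPM, nearly all of it from Hbb-bs (479 and 730 TPM) and Hba-a1 (316 and 485 TPM), which have near-identical copies, with Alas2 at 3.52 and 5.16 TPM, Epor at 2.36 and 2.06 TPM and Gata1 at 0.02 and 0.06 TPM. Of mesothelial markers 6 of 7 were detected, summing to 516 and 491 TPM, most of it from Krt19 (436 and 403 TPM), a keratin that the gut epithelium also makes, then Msln (35.8 and 40.9 TPM), Upk3b (22.2 and 25.8 TPM) and Upk1b (10.5 and 10.2 TPM). Endothelial markers, all 8 detected, summed to 213 and 223 TPM, led by Plvap (86.8 and 88.2 TPM), Egfl7 (43.7 and 52.5 TPM), Esam (23.0 and 22.0 TPM) and Pecam1 (21 and 20.9 TPM).

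Between the pups, the abundant tuft cell genes varied little. Ratios are pup 1 over pup 2 on rounded counts scaled by TMM library sizes, with exact 95% intervals that cover counting error only, for the 7 genes with a summed count of 10 or more. Ptgs1 had a ratio of 1.01 (0.950 to 1.08), Hpgds 0.898 (0.842 to 0.959) and Dclk1 1.17 (1.02 to 1.33). Alox5ap, at 1.25 (0.866 to 1.82), and Pou2f3, at 1.04 (0.422 to 2.66), had too few reads to show a difference of that size. Trpm5 was higher in pup 1, at 1.60 (1.18 to 2.19), on expected counts that lay mainly on the retained-intron transcript. Its protein-coding transcripts had too few reads for a ratio.

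The interval excluded 1 for 4 of these 7 genes (Dclk1, Trpm5, Avil and Hpgds), against 29.6% of the 19088 genes tested by this rule. It lay wholly outside 0.5 to 2 for 1 of the 7, against 0.796% of all genes tested. That gene was Avil, lower in pup 1, with a ratio of 0.212 (0.0895 to 0.452). The Avil ratio rests on 43 reads in all, and 1 library per pup gives no measure of variation within a pup. When scaled to spike-in totals (534 counts in pup 1 and 200 in pup 2), which moved the median of all genes by -1.09 on the log2 scale, the ratios of Dclk1 and Trpm5 turned below 1. Relative to that shift they stayed above the median gene, since the same factor applies to each gene.

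**Figure D5:**
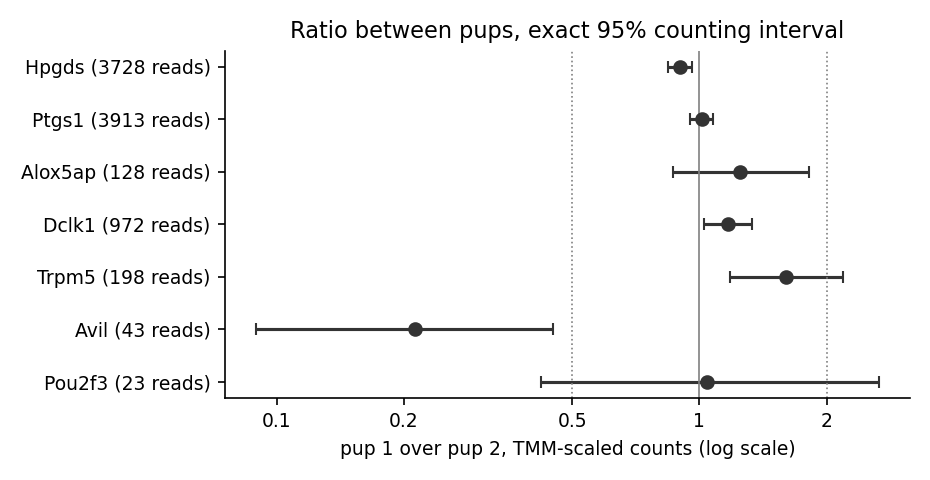
Ratio of pup 1 over pup 2 (log axis) for the 7 tuft cell genes with a summed count of 10 or more, with exact 95% counting intervals and dotted lines at 0.5 and 2. Ptgs1, Hpgds and Dclk1 lie close to 1, and Avil, with 43 reads, lies wholly below 0.5.

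Posterior HOX genes, which mark the hind end of the gut, summed to 14.5 TPM in pup 1 and 2.41 TPM in pup 2 over 16 genes, with Hoxa10 at 6.23 and 0.14 TPM, Hoxa9 at 2.34 and 0.85 TPM, Hoxd9 at 1.28 and 0.52 TPM and Hoxb9 at 1.24 and 0.29 TPM. Hoxb13 and Hoxc12 had no read, and Hoxa13 and Hoxc11 were at 0.03 TPM or less. The libraries thus differed in a positional marker set, in the direction of pup 1, and its part in the Trpm5, Dclk1 or Avil ratios was not tested. With 2 libraries of 1 group, no genes could be ranked by likeness of pattern to the tuft cell genes.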

How the data were processed

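For each of the 2 libraries the authors deposited a gene table and a transcript table, with expected counts (estimated reads), posterior means with their SD, TPM, FPKM and the percent of a gene's TPM on each transcript, per the file headers. Assembly mm10 and annotation M4 are named in the text deposited with the tables, and no source used here names the aligner, the quantifier or the use of strand.

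Symbols, transcript types and 1-based coordinates were taken by identifier from GENCODE M21 (GRCm38), which covered 98.0% of genes. Of 32 transcripts of the 10 genes, 26 had the same length there. Dclk1-203 and Alox5ap-201 did not, so their residues are those of M21.

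Expected counts were rounded. Library sizes came from TMM in edgeR 4.0.16 (R 4.3.3), and exact Clopper-Pearson intervals of ratios from SciPy 1.17.1, by code tested on simulated data. Python 3.11.15, numpy 2.4.6, pandas 2.3.3 and matplotlib 3.10.9 were used. Alternatives were DESeq2 1.42.0 size factors, total counts, spike-in totals, other thresholds and pseudocounts, CPM, FPKM, posterior means, and each pup alone.

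Named were all 10 genes and, of each other list, the 4 highest and up to 4 at 0.1 TPM or less in both pups. A single gene that this rule names is not reported here. Further genes, such as Alox5, Plcb2, Ptgdr, Il17rb and Sh2d6, were chosen after their values were seen. The 10 genes and all lists were chosen with earlier results of these data known. Both libraries came from 1 litter, so their spread is that of 2 littermates.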

Additional observations from a re-analysis of the deposited data

How the results depend on the processing

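Depth limits the low genes: 3 counts are 0.0673 CPM in pup 1 and 0.0862 CPM in pup 2, and lower levels of Gnat3 and Il25 were not detectable. The count of detected genes stayed between 4 and 5 in all 9 alternatives, with Trpm5 as the fifth, 5 in pup 1 alone and 4 in pup 2 alone, and 4 on protein-coding transcripts alone (chosen after seeing the data). The difference between genes with and without other sources (log2 4.05) was 1.70 and 5.99 with pseudocounts of 1 and 0.01, 4.52 in CPM and 3.61 with means. With detected genes alone it has no value, because none of the chiefly tuft genes was detected. Against enteroendocrine genes (-5.20) it was -3.90 and -5.48 with those pseudocounts, -4.24 in CPM, -4.61 with posterior mean TPM, -2.21 with detected genes alone and -3.50 with means. Against goblet genes (-7.84) the values were -6.49, -8.12, -6.53, -7.25, -4.21 and -6.05 in the same order. Within single pups they ranged 3.95 to 4.14, -5.31 to -5.09 and -7.99 to -7.69. Of the 4 chiefly tuft genes 2 had no read, so their median, and with it the difference of 4.05, depends directly on the pseudocount. The cause of the other shifts was not tested. Genes over 2-fold apart between pups numbered 1 in the report, 2 with spike-in totals (Hpgds joined Avil) and 0 at a summed count of 50 or more, where Avil, with 43 reads, was not tested. With spike-in totals the log2 ratio reversed for Dclk1 (-0.88), Pou2f3 (-1.04), Trpm5 (-0.42), Ptgs1 (-1.08) and Alox5ap (-0.78), beside a shift of -1.09 in all genes, and with total counts for Ptgs1 (-0.020). With total counts the Dclk1 interval included 1. The order of levels changed for 1 gene with posterior mean TPM and for 7 in CPM. No paired analysis was possible because both libraries belong to 1 group.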

Other observations

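The deposited posterior means treat genes with few or no reads differently from the expected counts. Alox5ap stood at 4.78 TPM in pup 1 and 4.31 TPM in pup 2 by posterior mean, against 2.88 and 2.41 TPM by expected count. A second Alox5ap transcript of 125 bases, with 0.84 and 0.4 posterior mean counts, took 40.5% and 44.5% of that posterior level. Gfi1b stood at 0.35 and 0.68 TPM and Avil at 0.37 and 0.72 TPM by posterior mean. Gnat3 and Il25, with no read, were given 0.02 and 0.03 TPM, and 0.03 and 0.04 TPM.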
